A study of Rattus norvegicus with 15 samples.

Results

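Parts of rat chromosomes 8 and 10 were examined for DNA methylation in peripheral blood. On the rn4 assembly they run from 16 to 22 Mb of chromosome 8 (the first window), from 40 to 45 Mb of chromosome 8 (the second window) and from 59 to 62 Mb of chromosome 10 (the third window). A region is a run of 3 or more probes inside these limits with no gap above 500 bp between neighbours. The windows held 281 of the 16782 regions measured, 105 in the first, 112 in the second and 64 in the third. These regions carried 2921 of the 2940 probes in the windows, and the other 19 probes lay in 15 shorter runs. The windows were proposed because their log2 ratios differed between diabetic and control rats in these same arrays, so the values of that comparison are given as a description and not as evidence. The intervals had been labelled receptor clusters. Since the files name no gene for a probe, and coordinates could not be set against an annotation of the same assembly, the label was not checked and no gene is named.

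The samples came from 15 male Sprague Dawley rats aged 20 weeks, 3 biological replicates in each of 5 groups, with 1 array per rat. Rats of the diabetic retinopathy (DR) model had received 45 mg/kg streptozotocin, a toxin of insulin-producing beta cells, and then distilled water. The CaD, other formula and LTF rats were labelled as treated rats of the same model. The CaD group was given 0.25 g/kg of calcium dobesilate per day, a vessel-protecting drug prescribed in diabetic retinopathy, together with 1.5 IU of insulin per day. Another group received a different Chinese formula, for which the labels give neither the dose nor whether insulin was used. The LTF group was given Luo-tong formula, a herbal preparation, at 2 g/kg per day with the same insulin. Control rats had received citric buffer in place of streptozotocin and distilled water. The effect of insulin cannot be told apart from that of CaD or LTF in comparisons with the DR model. Diabetes was induced by a toxin, and the samples are peripheral blood, not retina. The labelled tissue could not be checked against cell markers without gene names.

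In methylated DNA immunoprecipitation (MeDIP), an antibody against methylated cytosine recovers DNA fragments, which were labelled with Cy5 and hybridised together with input DNA labelled with Cy3. The level given here is the log2 ratio of MeDIP over input, centred on the median probe of each array. It depends on how many CpG sites a fragment holds as well as on the share of them that is methylated. AT-rich fragments with few CpG sites are recovered poorly whatever their methylation. Clusters of chemosensory receptor genes are known as arrays of duplicated genes with AT-rich, CpG-poor sequence, and they are silent in blood cells. Probe designs often use longer probes in AT-rich sequence to reach a common melting temperature, and probe length serves below as the match between regions.

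The arrays came from 6 scans on 3 days, and these did not fall evenly over the groups. The LTF arrays formed scan 4 and day 2 on their own, and scans 1 and 2 held only DR model replicate 2 and control replicate 1. CaD replicate 3 was in scan 3 with the other formula. Control replicates 2 and 3 shared scan 5 with DR model replicate 1, and scan 6 paired CaD replicates 1 and 2 with DR model replicate 3. Day 1 covered scans 1, 2 and 3, and day 3 covered scans 5 and 6. Outlier spots, left out array by array, numbered at least 7186 on LTF arrays and at most 4540 on the others. Over the 281 regions, pairs of arrays correlated at 0.876 to 0.981. DR model replicate 3, the only array of its group scanned together with treated arrays, had the highest median of its group in all 3 long-probe stretches described below, and results that rest on it are given with and without it.

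Each window split into stretches of long and of short probes, and outside a densely tiled block at the end of the second window the long-probe stretches had the lower levels. The limits of the stretches, and the mean probe length of 52 nucleotides that defines a long-probe region, were chosen after the data were seen. From chr8:16101959-19332677 ran the first long-probe stretch, with 50 regions, all of long probes, and a median level of -1.21 on the log2 scale over the 15 arrays. The rest of that window, chr8:19461285-21797154, held 55 regions of short probes with a median of 0.17. The second long-probe stretch, chr8:40321588-42947582, held 94 regions, 90 of them of long probes, at a median of -1.02. It was followed by 13 regions, 11 of them of short probes, at chr8:42964971-44136932 with a median of 0.17. The third long-probe stretch, chr10:60198708-61633263, held 40 regions, 27 of them of long probes, at a median of -0.91. On its lower side lay 22 short-probe regions at chr10:59098747-60142330 with a median of 0.01, and on its upper side 2 more.

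Long-probe regions made up 47.6% of the first window, 85.7% of the second and 42.2% of the third, against 18.3% of the 16501 regions elsewhere. Regions elsewhere in the same 1-nucleotide bins of mean probe length had a median level of -1.02 for the first long-probe stretch, -0.98 for the second and -0.61 for the third. All 3 stretches thus lay below their matches, the second by the least. Across the regions of a window the level and the mean probe length correlated at -0.882 (105 regions), -0.717 (112) and -0.834 (64). Neighbouring regions, measured on the same 15 arrays, had levels that correlated at 0.788, 0.448 and 0.584 in the first, the second and the third windows. The lowest level of all was -2.07 at chr8:42384275-42384747, a region of 3 probes, and the highest 0.81 at chr8:20823413-20824417, with 7.

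**Figure D1:**
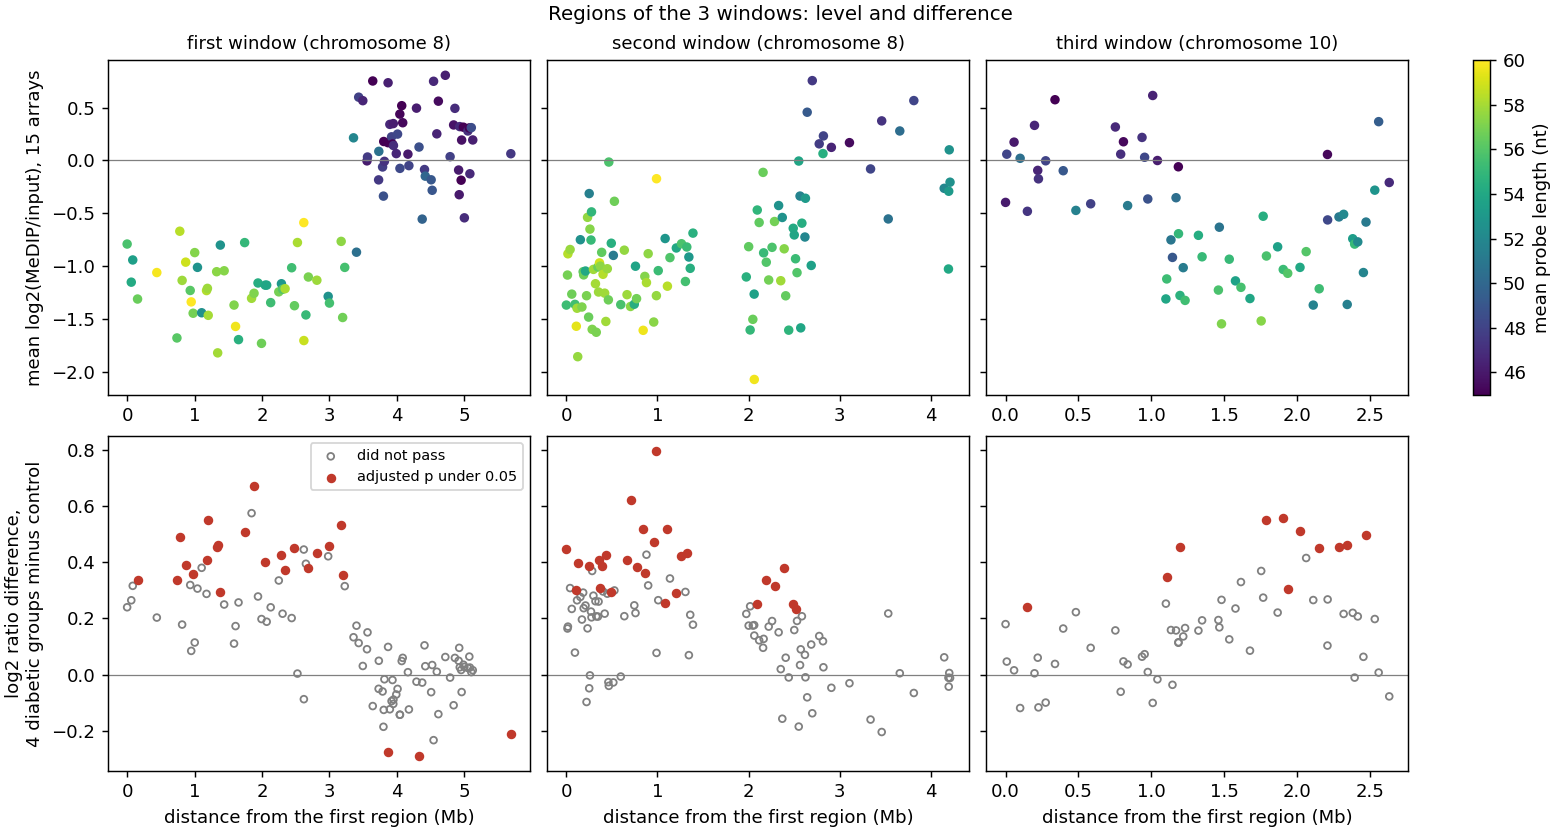
Each point is 1 region, placed by its distance in Mb from the first region of its window. The upper row gives the mean log2(MeDIP/input) over 15 arrays, coloured by mean probe length in nucleotides, and the lower row the log2 ratio difference of the 4 diabetic groups minus control, filled where the adjusted p was under 0.05. Levels are low in the long-probe stretches, with medians of -1.21, -1.02 and -0.91, and near 0 beside them, and all but 1 of the 59 regions called higher lie in the long-probe stretches.

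In the long-probe stretches the level was higher in every diabetic group than in control, on average. The median over the 50 regions of the first stretch was -1.26, -1.31 and -1.04 in DR model rats, -1.04, -0.99 and -1.21 with CaD, -1.29, -1.08 and -1.13 with the other formula and -1.04, -1.01 and -1.15 with LTF. Control rats had -1.32, -1.40 and -1.58. All 12 diabetic arrays lay above all 3 controls, the closest being DR model replicate 2 and control replicate 1. In the second stretch the DR model had -1.05, -1.18 and -0.86, CaD -0.89, -0.81 and -0.97, the other formula -1.07, -0.94 and -0.93 and LTF -0.82, -0.91 and -1.04. Control rats had -1.09, -1.16 and -1.34 there, so DR model replicate 2 lay among the controls while the other 11 diabetic arrays lay above them. In the third stretch the DR model had -0.85, -1.06 and -0.76, CaD -0.90, -0.68 and -0.90, the other formula -0.96, -0.84 and -0.80 and LTF -0.81, -0.84 and -0.91, against -1.13, -0.97 and -1.32 in control rats. DR model replicate 2 was again within the range of the controls.

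Regions elsewhere with the same probe lengths moved in the same direction by less. The median difference of the 4 diabetic groups minus control was 0.33 on the log2 scale in the first stretch, against 0.19 in its length-matched regions elsewhere. In the second it was 0.23 against 0.17, and in the third 0.22 against 0.10. Relative to matched regions of the same array, the first stretch averaged -0.13 ± 0.02 in the DR model, -0.16 ± 0.05 under CaD, -0.16 ± 0.05 under the other formula, -0.13 ± 0.03 under LTF and -0.23 ± 0.01 in control (SD, n = 3 each). All 12 diabetic values lay above the 3 control values, which spanned only -0.24 to -0.22. For the third stretch the means were -0.26 ± 0.09 in the DR model, -0.29 ± 0.08 under CaD, -0.28 ± 0.04 under the other formula, -0.30 ± 0.02 under LTF and -0.44 ± 0.13 in control (SD, n = 3 each). Here control replicate 2, at -0.28, lay among the diabetic arrays. For the second stretch the groups lay between -0.03 and -0.01 in diabetic rats and at -0.05 in control, a gap no larger than the spread within the LTF group (SD 0.06, n = 3). Control arrays there, at -0.06 to -0.05, overlapped those of the DR model and LTF. They lay below those of CaD, at -0.01 to 0.00, and of the other formula, at -0.04 to -0.02. Over whole windows the picture differed. In the first, control arrays, at -0.20 to -0.12, overlapped every diabetic group, such as CaD at -0.21 to -0.07. In the second, only the other formula, at -0.0845 to -0.0102, reached the control range of -0.1028 to -0.0843. In the third, only the DR model, at -0.37 to -0.19, overlapped control, at -0.49 to -0.33.

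**Figure D2:**
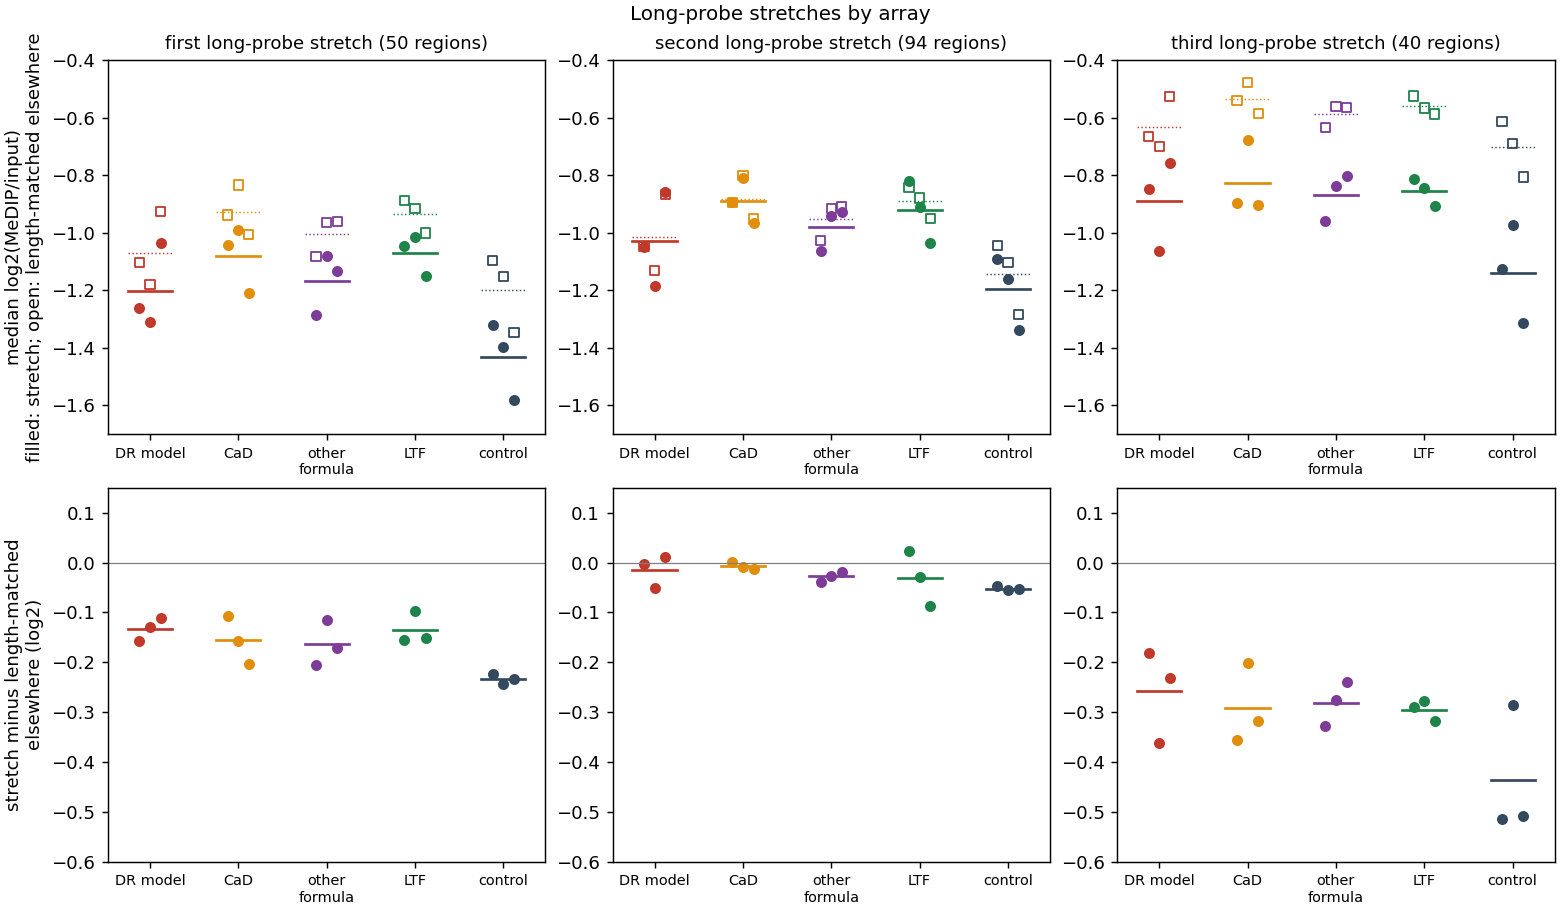
Points are single arrays and bars are group means (n = 3 rats each), for the 3 long-probe stretches. The upper row gives the median log2(MeDIP/input) of the stretch (filled) and of length-matched regions elsewhere (open), and the lower row their difference. In the first stretch the 12 diabetic arrays lie above the 3 controls in both rows, and in the second the lower row spans only -0.09 to 0.02.

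The short-probe stretches of the same windows showed little of this. The median difference of diabetic rats minus control was 0.01 in the 55 short-probe regions of the first window, -0.03 in the 13 of the second and 0.04 in the 22 lower ones of the third. Their length-matched regions elsewhere had -0.01, 0.02 and 0.00. Within a window the difference correlated with mean probe length at 0.757, 0.600 and 0.609 over 105, 112 and 64 regions, and with the level itself at -0.739, -0.564 and -0.625. Both are descriptions over regions measured on the same arrays.

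The input channel moved more than the MeDIP channel where the ratio differed. Taking each channel's log2 signal relative to its array median, the first stretch had -0.13 for MeDIP and -0.36 for input as the median difference of diabetic rats minus control. The second stretch had -0.17 and -0.37, and the third -0.06 and -0.27. Length-matched regions elsewhere had -0.20 and -0.33, -0.19 and -0.32, and -0.13 and -0.18. Relative to the array median, the higher ratios in diabetic rats therefore went with a lower signal in both channels, lower in input than in MeDIP. Against the length-matched regions, MeDIP was higher and input lower in all 3 stretches. Without centring, the median background-subtracted MeDIP signal of the first stretch was 11.4 to 19.2 in control arrays and 9.48 to 20.9 in diabetic arrays.

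Many probes of the long-probe stretches were dim in the MeDIP channel, which leaves them with a bound and not a level. In the first stretch 129 of 431 probes were not well above background on any DR model array, 148 with CaD, 124 with the other formula, 124 with LTF and 135 in control. The corresponding counts for the second stretch were 211, 219, 195, 183 and 212 of 836 probes. On probes bright in both channels on all 15 arrays, the median difference of diabetic rats minus control was 0.30 over the 39 regions left in the first stretch, 0.17 over 73 in the second and 0.18 over 38 in the third. The share of MeDIP spots well above background in the long-probe regions of the first window was 48.0% to 61.7% in DR model arrays, 59.4% to 64.0% with CaD, 65.0% to 66.6% with the other formula, 64.3% to 68.7% with LTF and 54.1% to 60.8% in control. Input spots ran the other way in the 3 treated groups. The share well above background was 81.4% to 86.1% with CaD, 83.1% to 90.3% with the other formula and 84.2% to 87.7% with LTF. In control it was 91.9% to 96.8%. The DR model, at 86.1% to 93.7%, overlapped control in input as in MeDIP. The part of these shares in the differences was not tested beyond leaving out dim probes.

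The size of the difference varied with scan day. Within day 1, with 5 diabetic arrays and control replicate 1, the median difference was 0.08 in the first stretch, 0.09 in the second and 0.07 in the third, while length-matched regions elsewhere stood at 0.00, 0.00 and -0.02. Within day 3, with 4 diabetic arrays and control replicates 2 and 3, it was 0.44, 0.32 and 0.34, against 0.28, 0.27 and 0.18 in the matched regions. The stretches exceeded their matched regions on both days. As the windows and the stretch limits were chosen from these same arrays, this is a description and not evidence. Day 1 also rests on 1 control array. DR model replicate 2, set against control replicate 1 on day 1, differed by 0.02 in the first stretch, -0.05 in the second and 0.005 in the third. DR model replicates 1 and 3, set against control replicates 2 and 3 on day 3, differed by 0.36, 0.27 and 0.30. Only scan 5 held control and diabetic arrays together. There DR model replicate 1 differed from control replicates 2 and 3 by 0.24, 0.13 and 0.21. LTF was scanned on a day of its own, so LTF and scan day cannot be told apart.

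Region by region, 62 of the 281 regions passed an adjusted p of 0.05 in limma for the mean of the 4 diabetic groups minus control, where 8.71% of all regions passed. Of these, 59 were higher, against 6.35% of all regions, and 3 were lower, against 2.36%. Since the windows were chosen from this contrast, nothing is read from these counts. In 17 regions all diabetic arrays lay above all controls and in 3 below, against 2.54% and 0.965% of all regions. Of the 59 higher regions, 21 lay in the first long-probe stretch, 27 in the second, 10 in the third and 1 in the short-probe regions below it. In the third stretch 7 of the 10 were long-probe regions and 3 were short-probe regions. The 3 lower ones lay in the short-probe part of the first window. Without control replicate 3 the count of 62 became 10, where 1.63% of all regions passed, and without control replicate 2 it was 40 (5.89%). It was 41 without CaD replicate 2 (5.41%) and 17 with scan as a random block (1.69%).

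Each diabetic group was also set against control on its own. No region passed in limma for the DR model, in the windows or in all regions (0% called, higher or lower). At an unadjusted p under 0.05 there were 67, or 23.8% of the windows, against 12.7% of all regions. CaD against control gave 44 regions (7.49% of all regions), 42 of them higher (5.51%) and 2 lower (1.98%). For the other formula there were 22 (2.44%), 20 higher (1.63%) and 2 lower (0.81%), and for LTF 52 (7.28%), 50 higher (4.84%) and 2 lower (2.43%). All 4 comparisons share the same 3 control arrays and the choice of the windows, so these are counts and no evidence. They moved with single arrays, as did the share of all regions called, which stands in brackets after each count. Leaving out control replicate 3 left 11 for CaD (1.26%), 15 for LTF (2.32%) and 1 for the other formula (0.00596%). Calls for CaD numbered 7 without CaD replicate 1 (0.56%), 1 without CaD replicate 2 (0.00596%), 71 without DR model replicate 2 (11.2%) and 72 without DR model replicate 3 (11.4%). The LTF count was 12 without LTF replicate 1 (1.88%) and 10 without LTF replicate 2 (0.971%). With the other formula it was 9 (0.816%), 1 (0.0119%) and 0 (0%) without its replicates 1, 2 and 3, and 36 (4.61%) and 11 (1.36%) without control replicates 1 and 2. It was 37 (5.2%) and 35 (5.8%) without DR model replicates 2 and 3, and 12 (1.38%) and 14 (1.29%) without CaD replicates 1 and 2. For the DR model the count was 6 without control replicate 1 (0.232%) and 2 without DR model replicate 2 (0.167%).

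For all diabetic groups against control, the region of the first window with the smallest p was chr8:17985146-17986876, which has 9 probes over 1731 bp. Its level was -1.40, -1.40 and -1.35 in DR model rats, -1.04, -1.11 and -0.87 with CaD, -1.19, -1.05 and -1.04 with the other formula and -1.11, -0.94 and -0.94 with LTF, against -1.65, -1.87 and -1.86 in control rats. All diabetic arrays lay above all controls, and the DR model arrays lay between the controls and the 9 treated arrays. The difference of diabetic rats minus control was 0.67 ± 0.06 (SE), and that of LTF minus control 0.80 ± 0.08 (SE). Along the region the control mean was below each diabetic mean at 7 of 9 probes, the exceptions being the DR model at the second and eighth probes. In control rats 4 of the 9 probes were not well above background in the MeDIP channel on any array, so the level of the region is in part a bound. The largest difference among its probes, 1.16, was at such a probe. The third probe, well above background on 2 of the 3 control arrays, had 1.12. The sixth and the seventh, well above background on every array, had 0.89 and 0.43.

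At chr8:19278071-19279706 the diabetic groups averaged 0.53 ± 0.08 (SE) above control, and at chr8:18584679-18586311 they averaged 0.45 ± 0.07 (SE) above it. In both, all diabetic arrays lay above all 3 controls.

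In the second window the leading region was chr8:41025841-41027570, with 10 probes over 1730 bp. It had -1.43, -1.55 and -1.21 in DR model rats, -1.13, -1.16 and -1.35 with CaD, -1.32, -1.31 and -1.27 with the other formula and -1.06, -0.97 and -1.31 with LTF. Control rats had -1.75, -1.87 and -2.01, below every diabetic array. The difference was 0.62 ± 0.08 (SE), and every probe had a positive difference, from 0.24 to 1.18. The third, the fifth and the sixth probes were not well above background on any control array, so the level is in part a bound, and the difference of 1.18 was at the third. Probes well above background on every array had differences of 0.24 to 0.61. Next came chr8:40685256-40686831, at 0.41 ± 0.07 (SE), where the groups were also fully separated, and chr8:41585280-41586992, at 0.42 ± 0.08 (SE), where DR model replicate 2 overlapped the controls. A region of 5 probes, chr8:41309822-41310588, had the largest difference of all 281, 0.79 ± 0.17 (SE), and was picked out after its values were seen. There DR model replicate 1 stood at -2.22, below all controls, and only 26.7% of MeDIP spots were well above background in both DR model and control arrays, so the value is in large part a bound.

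The leading region of the third window was chr10:61571790-61573552, with 10 probes over 1763 bp and a mean probe length of 51.1 nucleotides, short of the limit for a long-probe region. Its level was -0.64, -0.49 and -0.37 in DR model rats, -0.32, -0.36 and -0.59 with CaD, -0.53, -0.43 and -0.40 with the other formula and -0.53, -0.52 and -0.61 with LTF, against -1.08, -0.84 and -1.02 in control rats. The groups did not overlap, and the difference was 0.50 ± 0.07 (SE). The fourth, the sixth and the eighth probes were not well above background on any control array, so the level is in part a bound. The DR model arrays overlapped those of each treatment here. Within day 1 the difference was 0.57, and within day 3 it was 0.51. The next 2 regions were chr10:61442762-61444486, at 0.46 ± 0.09 (SE), where the arrays overlapped, and chr10:60888483-60890237, at 0.55 ± 0.11 (SE), where they did not.

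**Figure D3:**
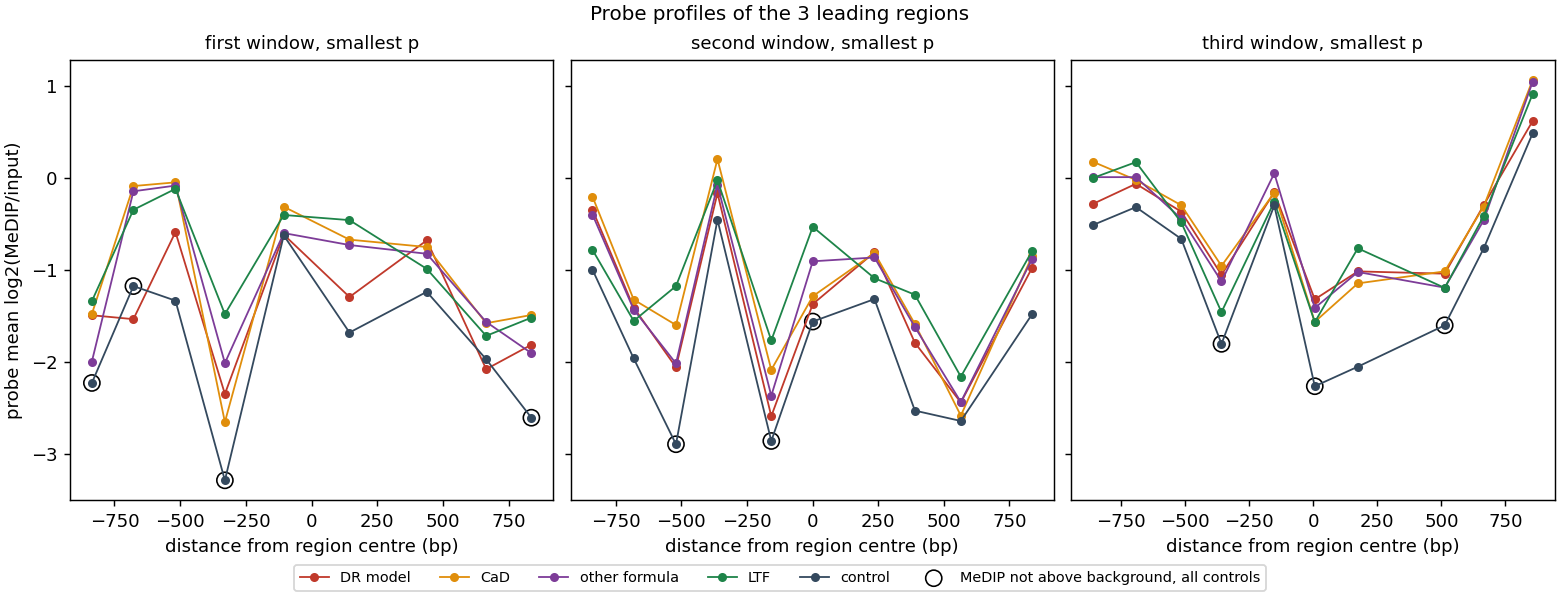
Group means of log2(MeDIP/input) for each probe (n = 3 rats per group) are plotted against the distance in bp from the centre of the region, for the leading region of each window. Black circles mark probes whose MeDIP signal was not well above background on any control array, and the control line lies lowest at nearly all probes, the exceptions being the DR model at 2 probes of the first region.

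The 3 lower regions lay between 19 and 22 Mb of chromosome 8, among short probes. At chr8:21795489-21797154 the level was -0.16, -0.09 and 0.19 in DR model rats, 0.00, 0.09 and 0.02 with CaD, 0.16, 0.15 and 0.03 with the other formula and -0.02, -0.07 and -0.05 with LTF, against 0.26, 0.22 and 0.23 in control rats. All diabetic arrays lay below the 3 controls, and the difference was -0.21 ± 0.06 (SE). At chr8:20433290-20434308 it was -0.29 ± 0.07 (SE) and at chr8:19972772-19973443 -0.28 ± 0.08 (SE), and in both the DR model overlapped control.

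Treatments were also set against the untreated DR model, which asks whether the regions differ with treatment. The windows were chosen from another contrast, that of diabetic against control rats. The treated and DR model arrays both entered that choice, so the values below are not independent of it. In limma no region of the windows passed for CaD or for the other formula, nor any of all 16782 regions (0% called for each, higher or lower). At an unadjusted p under 0.05 there were 35 with CaD, 12.5% of the windows against 15% of all regions. With the other formula there were 32, 11.4% against 15.1%. For LTF 3 regions passed, which is 1.07% of the windows against 0.9% of all regions. All 3 were higher with LTF, the direction of 0.238% of all regions, and none was lower, against 0.661% of all. At an unadjusted p under 0.05 there were 59 for LTF, 21% of the windows against 19.4% of all regions. With both directions pooled, shares of regions called in the windows were thus close to those of all regions for each treatment. By direction they were not. At an unadjusted p under 0.05 in limma, LTF was higher in 13.5% of the windows (6.55% of all regions) and lower in 7.47% (12.9%). CaD was higher in 9.96% (6.44%) and lower in 2.49% (8.54%). The other formula was higher in 6.05% (4.21%) and lower in 5.34% (10.9%). These departures were not tested, and the shares of all regions are not matched for probe length. Elsewhere the median difference of LTF from the DR model was 0.07 in long-probe regions and -0.04 in short-probe regions. Long-probe regions are more frequent in the windows, so the departures cannot be told apart from probe length.

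Most regions of the windows had a higher mean in the treated groups than in the DR model, by shares that are a description and were not tested. The shares of all regions beside them are again not matched for probe length. With CaD 197 of 281 regions had a higher mean than in the DR model, or 70.1%, against 51.9% of all regions. For the other formula the number was 157, or 55.9%, against 44.1%, and for LTF it was 171, or 60.9%, against 43.2%. With LTF all arrays lay above all DR model arrays in 37 regions of the windows (6.71% of all regions) and below them in 17 (13.6%). For CaD the corresponding numbers were 25 (6.65%) and 10 (9.79%), and for the other formula 16 (5.57%) and 19 (13%). The median difference of LTF from the DR model was 0.13 in the first long-probe stretch, 0.12 in the second and 0.06 in the third, against 0.10, 0.09 and 0.05 in length-matched regions elsewhere. CaD differed by 0.12, 0.11 and 0.09, against 0.11, 0.11 and 0.07 in matched regions, and the other formula by 0.05, 0.05 and 0.03, against 0.05, 0.05 and 0.03. In the 55 short-probe regions of the first window LTF had a median of -0.05, CaD -0.03 and the other formula -0.04. These comparisons share the 3 DR model arrays.

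The number of regions that passed against the DR model moved with single arrays. Without DR model replicate 3, CaD gave 22 regions in the windows, the other formula 14 and LTF 21, or 7.83%, 4.98% and 7.47% of the windows. The fits without it called 8.51%, 6.76% and 7.79% of all regions. With both directions pooled, each share in the windows was thus below that of all regions, for LTF only slightly. Of the regions called in the windows, 19 of 22, 10 of 14 and 19 of 21 were higher with treatment. No share of all regions by direction was computed for these fits. In scan 6, which holds DR model replicate 3 with CaD replicates 1 and 2, the median difference of CaD from the DR model was 0.02, 0.03 and -0.04 in the first, second and last of these stretches. Within day 1, where DR model replicate 2 is the only array of its group, the other formula differed from it by 0.16, 0.15 and 0.16. There 15 regions of the windows passed, or 5.34%, against 5.85% of all regions, and the lone DR model array was assumed to vary like the other groups.

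The 3 regions called for LTF were all in long-probe stretches. At chr8:18791272-18792896 the level was -0.57, -0.64 and -0.98 with LTF, against -1.20, -1.45 and -1.24 in DR model rats. LTF was higher by 0.57 ± 0.11 (SE, adjusted p = 0.0336 in limma), with all LTF arrays above all DR model arrays. Of its 9 probes, the fifth, the sixth and the ninth were not well above background on any array of either group, so the level is in part a bound. The sixth probe averaged -1.11 with LTF and -1.98 in the DR model, and the ninth -0.63 with LTF and -1.59 in the DR model. Among the probes well above background on all these arrays, the eighth averaged 0.45 with LTF and -0.28 in the DR model. The fourth averaged -0.29 with LTF and -0.74 in the DR model, and the first -0.19 and -0.43. The second, at -1.28 and -1.27, and the third, at -1.10 and -1.08, were not higher with LTF. The second region, chr8:40475361-40477045, had -0.28, -0.41 and -0.60 with LTF, against -0.91, -1.15 and -0.68 in the DR model, so LTF exceeded it by 0.48 ± 0.11 (SE, adjusted p = 0.0461 in limma), again without overlap. There 3 of the 10 probes were dim in this way on every LTF and DR model array, and 1 more on every DR model array. The third was chr8:17985146-17986876, described above, with 0.39 ± 0.08 (SE, adjusted p = 0.0408 in limma) and no overlap. At the first and second of these the DR model and control arrays overlapped. None of the 3 was called with scan or scan day as a random block, with replicate as a block, or without DR model replicate 1 or 2, since all of these gave 0 regions in the windows. The count was also 0 without LTF replicate 1 or 2, CaD replicate 2 or replicate 2 of the other formula. On probes bright in both channels neither of the first 2 regions passed (adjusted p = 0.258 and 0.411 in limma), and of the 3 regions called in the windows 1 was higher with LTF. The count was 1 without CaD replicate 1, LTF replicate 3 or replicate 3 of the other formula, 5 without control replicate 1 and 21 without DR model replicate 3.

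**Figure D4:**
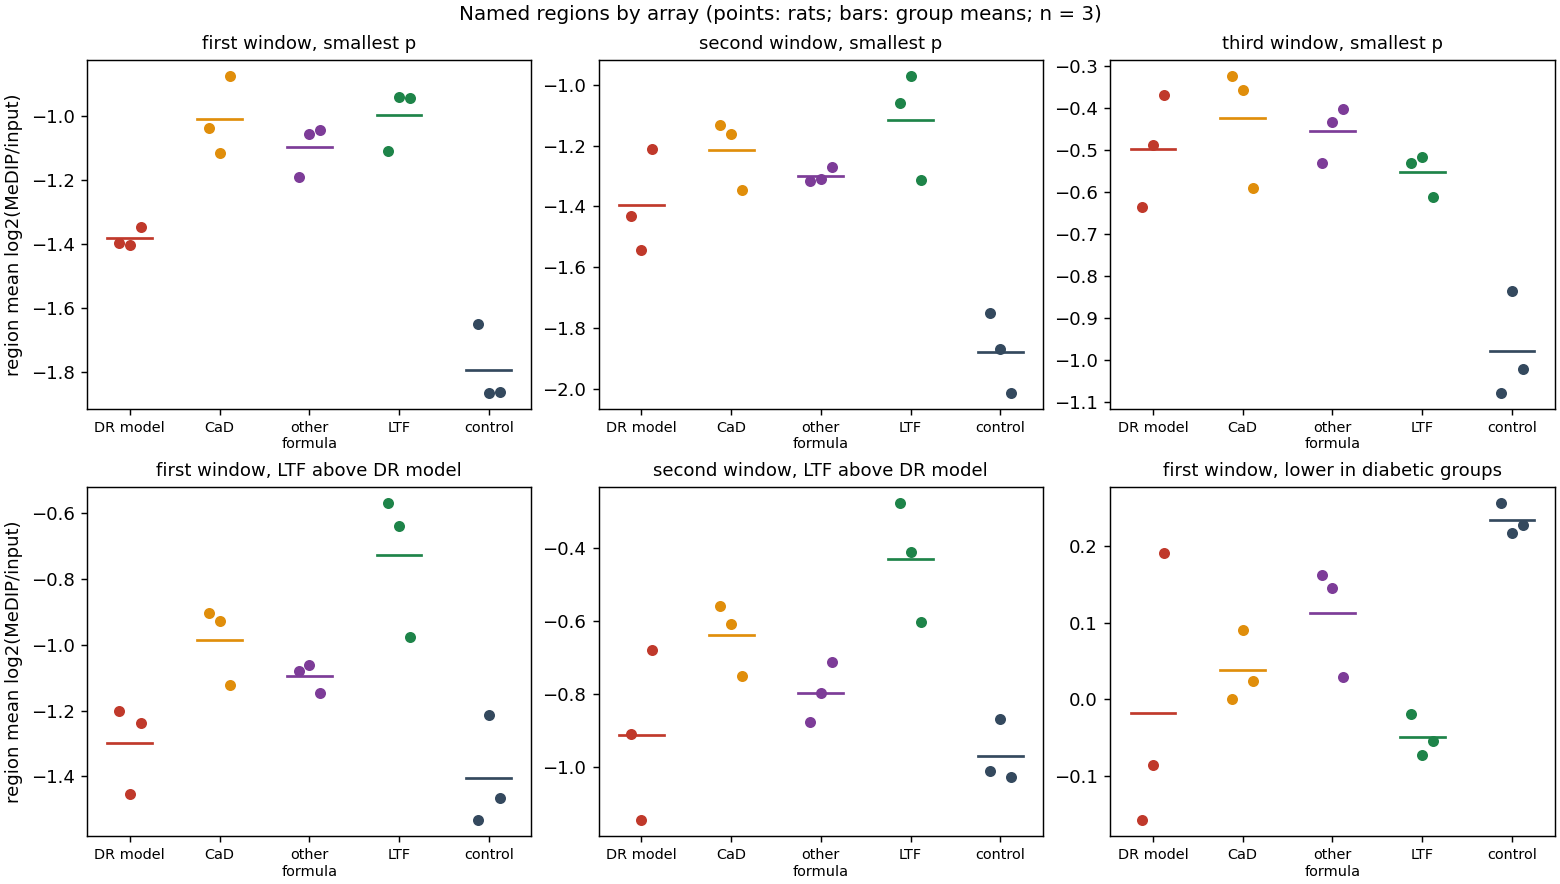
Points are single rats and bars are group means of the region's log2(MeDIP/input) (n = 3 each); the vertical axes differ between panels. The upper row shows the region of smallest p in each window for diabetic against control, where no diabetic array overlaps control, and the lower row 2 regions higher in LTF than in the DR model and 1 region lower in diabetic rats.

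In the opposite direction, the region with the highest level of the second window, chr8:43020746-43021260, had the smallest p of that window for lower values in all 3 treatments. It had 0.55, 0.47 and 0.66 with CaD, 0.49, 0.66 and 0.58 with the other formula and 0.65, 0.74 and 0.76 with LTF, against 1.09, 1.29 and 0.79 in the DR model. Every treated array lay below every DR model array. None of the 3 differences passed, at -0.49 ± 0.11 for CaD (SE, adjusted p = 0.113 in limma), -0.48 ± 0.11 for the other formula (SE, adjusted p = 0.103 in limma) and -0.34 ± 0.11 for LTF (SE, adjusted p = 0.116 in limma). The region has 4 probes. Control rats had 0.82, 0.74 and 1.04 there.

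A densely tiled block closed the second window. Its 5 regions, chr8:44468685-44570592, held 504 probes over 0.102 Mb, against 9 probes in the median region of that window. The largest region, chr8:44468685-44514367, had 232 probes and a level of -0.29 ± 0.05 in the DR model, -0.23 ± 0.02 under CaD, -0.24 ± 0.01 under the other formula, -0.24 ± 0.04 under LTF and -0.31 ± 0.09 in control (SD, n = 3 each). In 5-kb bins the mean over all arrays went up and down along the block, between -0.89 at 20 kb and 0.53 at 40 kb from its start. The difference of diabetic rats minus control lay between -0.08 and 0.23 over the bins, and the highest value was at 25 kb, in one of the bins of low level. Of the 5 regions 4 were long-probe regions, and their median level was -0.26, against -0.53 in length-matched regions elsewhere. Relative to matched regions of the same array the block stood at 0.27 ± 0.07 in the DR model, 0.23 ± 0.03 under CaD, 0.26 ± 0.02 under the other formula, 0.25 ± 0.02 under LTF and 0.34 ± 0.06 in control (SD, n = 3 each). The median difference of diabetic rats minus control was -0.01 over the 5 regions, against 0.08 in the matched ones, and none was called. Mean probe lengths of the bins ran from 48.2 to 54.6 nucleotides, and the bins at 20 and 40 kb had 53.5 and 49.6. The bins at 25 and 35 kb, with similar mean lengths of 50.9 and 50.8 nucleotides, had levels of -0.80 and 0.24, over 1 log2 unit apart.

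**Figure D5:**
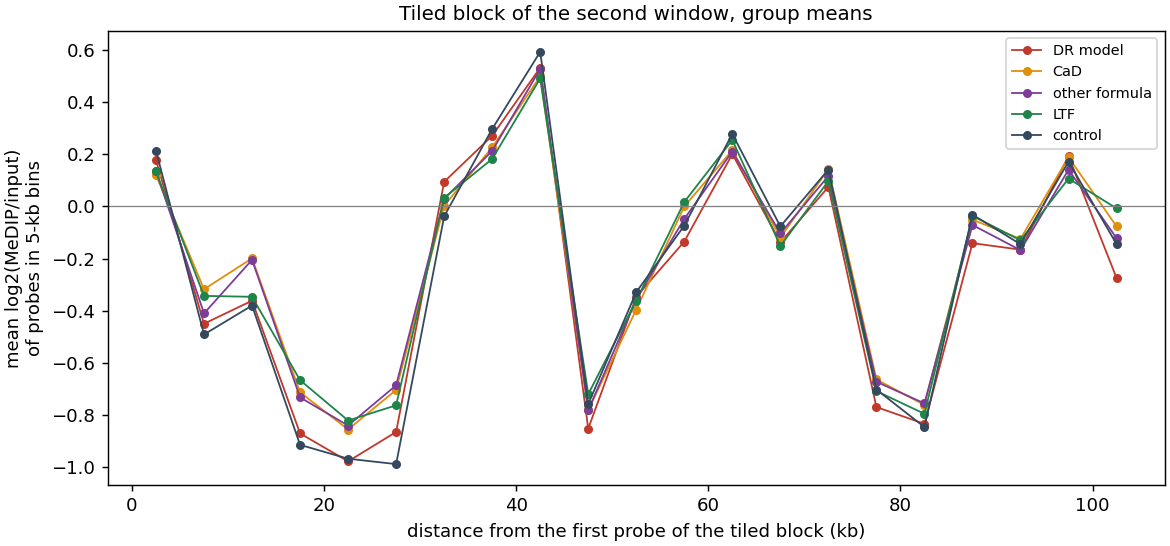
Group means (n = 3 rats each) of log2(MeDIP/input) of the probes in 5-kb bins are plotted against the distance in kb from the first probe of the tiled block. The 5 lines follow each other between -0.99 and 0.59, and the control line lies lowest between 5 and 30 kb except in the bin at 20 kb.

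Of the 6 edges, the start of the second window had the largest step in the difference. There chr8:40321588-40323175, just inside, differed by 0.45 between diabetic and control rats, and the region before it, chr8:39670762-39672452, by 0.06. Just inside the lower edge of the first window, chr8:16101959-16103669 had 0.24, and just outside, chr8:15842225-15843890 had 0.11. The third window began with 0.18, against 0.08 outside. The upper edges had -0.21, -0.01 and -0.08 inside and -0.15, -0.08 and 0.07 outside, in the order of the windows.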

How the data were processed

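Each array carried MeDIP DNA in Cy5 and input DNA in Cy3, per the labels. The deposited intensities were background-subtracted and dye-normalized by the authors with Agilent Feature Extraction 11.0.1.1 on rn4 (RGSC v3.4), per the file headers. The log10 ratios in the same files are Feature Extraction's red over green, per the file headers, and checked the direction. The authors' value table was treated as log2 ratios in 1 alternative; nothing given here states its scale, and centring and sign are likewise unknown. The submitters' processing notes name limma without saying for what. From the processed intensities log2(Cy5/Cy3) was computed for 172669 probes, spots called outliers and 6856 control spots were left out, and each array was centred on its median. Of 17668 runs of probes, 884 were too short and 2 had no value on at least 1 array, so 16782 regions were fitted. Region means were fitted with limma 3.58.1 in R 4.3.3 as 5 group means over 15 arrays, with Benjamini-Hochberg adjustment over all regions of a comparison and a threshold of 0.05, after a check on simulated data. SE is that of the fitted difference. "Length-matched" means regions outside the windows in the same 1-nucleotide bin of mean probe length, weighted to the composition of the stretch. Regions were named by a rule: in each window, the smallest p per direction and comparison, the 3 smallest for diabetic against control, the extremes of level and the most probes. The regions called for LTF and chr8:41309822-41310588 were added for their values. The windows, lists and tests were chosen with earlier results of these data known. Replicate numbers did not pair the arrays: over 30 pairs of arrays with the same number, deviations from the group means correlated at -0.424 to 0.331. Precision is limited by having 3 arrays per group.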

Additional observations from a re-analysis of the deposited data

How the results depend on the processing

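In each long-probe stretch the difference of diabetic rats minus control, less that of its length-matched regions, stayed above 0. It did so under the 15 alternatives computed for stretches and with each array left out. The values were 0.04 to 0.19 in the first, 0.02 to 0.09 in the second and 0.07 to 0.17 in the third. The windows and the stretch limits were chosen from these same arrays, so this is a description and not evidence. For whole windows, leaving out 1 array at a time gave 0.0201 to 0.0467, 0.0267 to 0.0699 and 0.0479 to 0.1169 in the first, the second and the third windows. The excess of the first window, 0.0319, was 0.0061 under loess, the second's 0.0568 was 0.0118 with normexp background correction and 0.0206 with the authors' value table, and the third's 0.1012 was 0.0475 with normexp. The pooled SD over arrays was 0.0635, 0.0278 and 0.0651 for the first, the second and the third windows. The 2 other ways of matching were run for whole windows only.

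Counts of regions called depended on the processing. In each list below, DR, CaD, other formula, LTF and all diabetic stand for the comparison with control unless the DR model is named. Brackets give the share of all regions called. Loess gave 23 for DR (1.49%), 111 for CaD (17.5%), 78 for the other formula (10.2%), 98 for LTF (14.2%) and 127 for all diabetic (20.1%). Normexp gave 83 for CaD (14.2%), 85 for LTF (10.3%) and 9 for LTF against the DR model (2.62%). Quantile normalization gave 9 for CaD (1.66%), 5 for the other formula (0.53%), 27 for LTF (5.3%) and 19 for all diabetic (3.34%), 15 of them higher. Centring by probe length gave 25 for CaD (5.06%), 21 for LTF (5.14%), 36 for all diabetic (6.89%), 33 of them higher, and 4 for LTF against the DR model (2.12%), 2 of them higher. Bright probes only gave 27 for LTF (8.1%), 2 for the other formula against the DR model (1.42%) and 3 for LTF against the DR model (4.49%), 1 of them higher. Keeping outlier spots gave 40 for the other formula (4.5%) and 7 for LTF against the DR model (1.94%), 4 of them higher. Gaps of 1000 bp gave 5 for LTF against the DR model (0.836%), 4 of them higher.

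Scan as a random block gave 1 for CaD (0.00596%), 0 for the other formula (0%), 1 for LTF (0.0238%), 17 for all diabetic (1.69%) and 0 for LTF against the DR model (0%). As a fixed block it left 0 with CaD and 0 with the other formula (0% each), and it could not be fitted for LTF or the diabetic mean. Scan day as a random block gave 27 for LTF (3.14%) and 0 for LTF against the DR model (0.0119%). Within day 1 there were 1 for CaD (0.119%), 1 for all diabetic (0.215%) and 15 for the other formula against the DR model (5.85%), and within day 3 there were 7 for DR (0.28%) and 77 for CaD (9.98%). Without the 2 arrays alone in a scan there were 12 for DR (0.584%), 86 for CaD (12.9%), 52 for the other formula (7.49%), 95 for all diabetic (13.6%) and 0 for LTF against the DR model (0.0953%). The replicate block, whose numbers do not pair the arrays, gave 9 for the other formula (0.959%) and 0 for LTF against the DR model (0.161%), and changed no other count by over 1.5 times. Leaving out 1 array at a time gave 0 to 6 for DR, 1 to 72 for CaD, 0 to 37 for the other formula, 10 to 64 for LTF and 10 to 86 for all diabetic. Against the DR model it gave 0 to 22 for CaD, 0 to 14 for the other formula and 0 to 21 for LTF. The causes were not tested.

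The named values were counted under the alternatives and with each array left out. Of these, 1421 kept direction and side of the adjusted p threshold of 0.05 in limma. A further 144 no longer passed it, 43 newly passed it and 5 turned in direction. Under normexp chr8:43230185-43231881 had 0.0051 for DR, chr10:60108365-60110135 0.0331 for the other formula and chr10:60243808-60245547 0.0186 for CaD against the DR model. On bright probes chr8:43782760-43784496 had 0.0549 for LTF and chr10:60243808-60245547 0.0082 for CaD against the DR model. Matching on mean log2 ratio in place of probe length was added after the data were seen. Normexp used median spot signals. Signal over background limits the long-probe levels: 41.5%, 47.4% and 59.9% of the probes in the first, the second and the third stretches were bright in both channels on all arrays.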
